A study of Mus musculus with 6 samples.

Results

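Neurexins, neuroligins and cerebellins are the members of a trans-synaptic adhesion system, and 8 of their genes (Nrxn2, Nrxn3, Nlgn1, Nlgn2, Nlgn3, Cbln1, Cbln2 and Cbln4) were followed through RNA sequencing of embryonic mouse dorsal root ganglia. They were chosen by name, as all transcripts whose Ensembl identifier carries one of these symbols in the GENCODE M21 annotation, which gave 45 of the 93615 transcripts and 8 of the 37086 genes in the files. All 8 passed the filter on low counts, which 16120 genes passed. The ganglia came from 18 wild-type C57BL/6J embryos at embryonic day 14.5 (Theiler stage 22), were pooled, and gave 1 stock of total RNA. That stock was carried into 6 libraries in 2 groups: a high-volume group with the RNA in 9 µl, and a low-volume group with the RNA in 1 µl, each made with its own SMARTer low-input kit, which primes cDNA on the poly(A) tail. Each group held 1 library from 3 ng, 1 from 10 ng and 1 from 30 ng of RNA, so that volume and kit cannot be told apart. Since the 6 libraries repeat 1 pool of RNA, the errors and p-values given here cover technical spread and not spread between animals.

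Neurexins are presynaptic membrane proteins, and neuroligins and cerebellins are among their ligands. Each neurexin gene has an upstream start for the long alpha form and an internal start for the short beta form, which keeps only the last of the extracellular laminin-like domains. Neuroligins are cholinesterase-like membrane proteins of the postsynaptic side, where NLGN1 is best known at excitatory and NLGN2 at inhibitory synapses. Cerebellins are secreted relatives of complement C1q that join neurexins carrying the insert of splice site 4 to delta-type glutamate receptors. Sensory neurons of the ganglia extend central axons that form glutamatergic synapses in the spinal cord.

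Short alternative exons of Nrxn3 and of the neuroligins are shown first, because their read density is compared with that of their neighbours further on. The 90-base exon of splice site 4 of Nrxn3 is a coding exon at chr12:90199147-90199236 (plus strand), printed whole in lower case.
Nrxn3 splice site 4 exon: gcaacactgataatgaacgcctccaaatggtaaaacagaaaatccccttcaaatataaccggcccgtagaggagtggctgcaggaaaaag
The neuroligins have short coding exons at splice site A, in the cholinesterase-like domain. The Nlgn2 exon has 51 bases and is not printed, because it had 3 tags in all. Those of Nlgn1 and Nlgn3 have 60 bases: Nlgn1 has 1, at chr3:25920178-25920237 (minus strand), and Nlgn3 has 2 in tandem, a 5′ exon at chrX:101303072-101303131 and a 3′ exon at chrX:101307075-101307134 (plus strand). In the Nlgn1 exon and the Nlgn3 3′ exon capitals mark the bases that differ between those 2, and in the Nlgn3 5′ exon they mark the bases that differ from the 3′ exon.
Nlgn1 site A exon: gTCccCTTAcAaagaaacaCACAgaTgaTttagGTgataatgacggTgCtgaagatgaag
Nlgn3 site A exon, 3′: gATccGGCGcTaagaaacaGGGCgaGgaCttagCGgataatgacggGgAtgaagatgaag
Nlgn3 site A exon, 5′: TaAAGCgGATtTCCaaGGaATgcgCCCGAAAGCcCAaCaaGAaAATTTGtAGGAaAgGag
The Nlgn3 3′ exon matched the Nlgn1 exon at 43 of 60 positions (71.7%), and the Nlgn3 5′ exon matched it at 16 (26.7%). The 2 Nlgn3 exons shared 19 positions (31.7%). These sequences are from the GENCODE M21 transcripts on GRCm38.

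The beta start of Nrxn3 is shown because most exonic reads of that gene lay downstream of it. RefSeq (GRCm38.p6) places it near the end of the following 300-base window, chr12:89812233-89812532 (plus strand), which covers 250 bases before the start and 50 bases after it. Capitals mark CpG dinucleotides.
Nrxn3 beta start: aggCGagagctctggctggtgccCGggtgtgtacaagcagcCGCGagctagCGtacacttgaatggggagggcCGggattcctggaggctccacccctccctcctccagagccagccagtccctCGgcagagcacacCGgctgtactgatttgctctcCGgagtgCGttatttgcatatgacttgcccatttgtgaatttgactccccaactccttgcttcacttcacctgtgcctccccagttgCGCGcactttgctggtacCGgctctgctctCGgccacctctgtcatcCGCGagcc
The window held 16 CpG dinucleotides and 60.7% G and C, against medians of 7 and 52.7% over 32851 RefSeq promoter windows of the same length. The motif TATAAA, searched on both strands, was in none of the 7 windows of the 4 members with a RefSeq entry (Cbln4, Nlgn1, Nlgn2 and Nrxn3), and in 13.6% of all windows.

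The chosen transcripts, 1 for each gene and the one with the most reads, held 14160401 to 25867706 reads, called tags in the files, in the high-volume libraries and 15920967 to 31524211 in the low-volume libraries. The 3 ng library was the shallowest of each group. Markers of sensory neurons were abundant: all 8 on the list had a mean RPKM (tags per length of transcript, scaled to library size) of 10 or more, and Isl1 averaged 129 ± 17.9 (SD, n = 6 libraries). Of 8 spinal cord markers only Hes5, a Notch target also active in glial progenitors, reached a mean RPKM of 1. Among the rest, the motor neuron and progenitor genes Mnx1 and Olig2 were at 0 to 1 tag in every library. Nkx6-1 had 12 to 44 tags per library, Pax6 0 to 95, Chat 0 to 90, Lhx3 0 to 21 and Lbx1 0 to 15. None of 3 sympathetic markers reached 1.

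Cbln2 was the most abundant of the 8 genes, Nlgn3 was the highest neuroligin and Nrxn3 was the higher of the 2 neurexins. Levels are given as RPKM from 3, 10 and 30 ng, which scales tags by transcript length. Comparison between genes is limited by uneven coverage along the transcripts, described further on. In bulk RNA, fewer cells of a type and less RNA per cell cannot be told apart. Cbln2 (chromosome 18) had 23.7, 19.1 and 15.1 RPKM in the high-volume libraries, against 17.1, 10.8 and 9.23 RPKM in the low-volume libraries, a mean of 15.9 ± 5.37 (SD, n = 6). At each input the high-volume library was above the low-volume library, although the ranges of the groups overlapped. Cbln1, the founding cerebellin of cerebellar granule cells, had 0.166, 1.29 and 1.69 RPKM in the high-volume libraries, against 0.051, 1.43 and 1.34 RPKM in the low-volume libraries. Both 3 ng libraries were low, with 6 tags at high volume and 2 at low volume, where the other 4 had 78 to 111. Cbln4 had 0.378, 0.720 and 0.367 RPKM at high volume, against 0, 0.451 and 0.467 RPKM at low volume. Its low-volume 3 ng library had no tag, which allows up to 0.0611 RPKM by the limit of 3 tags.

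Among the neuroligins Nlgn3 stood highest. Nlgn3 (X chromosome) had 4.85, 5.61 and 6.40 RPKM in the high-volume libraries, against 7.40, 9.08 and 7.86 RPKM in the low-volume libraries, a mean of 6.87 ± 1.55 (SD, n = 6). All 3 high-volume libraries lay below all 3 low-volume libraries, a separation in RPKM that 19% of all tested genes showed in one direction or the other. An exonic stretch of 44.8% of this transcript is also annotated to Gm21986 on the same strand, and tags of the 2 genes cannot be told apart there. Nlgn2 (chromosome 11) was the steadiest member, with 2.99, 2.76 and 2.90 RPKM at high volume, against 3.14, 3.28 and 3.45 RPKM at low volume. Those RPKM groups did not overlap either, but in TMM-scaled CPM they did, at 17.5 to 19.4 at high volume and 17.9 to 20.2 at low volume. Nlgn1 (chromosome 3) had 0, 0.497 and 0.594 RPKM at high volume, against 0.176, 0.363 and 0.933 RPKM at low volume. The high-volume 3 ng library held no Nlgn1 tag, which allows up to 0.0445 RPKM, and the low-volume 3 ng library held 13.

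Of the neurexins, Nrxn3 (chromosome 12) had 3.35, 3.98 and 3.81 RPKM in the high-volume libraries, against 2.72, 4.98 and 4.44 RPKM in the low-volume libraries, and its groups overlapped. Nrxn2 (chromosome 19) had 1.22, 1.32 and 1.29 RPKM at high volume, against 1.99, 0.888 and 0.685 RPKM at low volume. Its high-volume libraries lay within the wide span of the low-volume libraries.

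**Figure D1:**
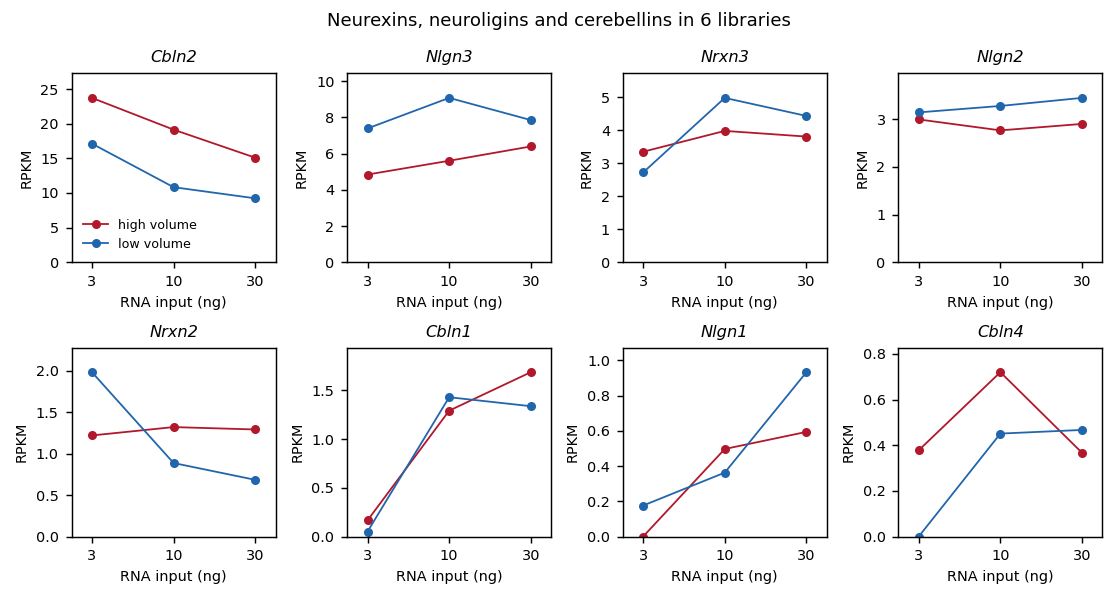
RPKM of each of the 8 genes (vertical axes, each starting at 0) against the RNA input in ng, with high-volume libraries in red and low-volume libraries in blue, 1 library per point. Cbln2 lies higher at high volume at each input with lower values at larger inputs, Nlgn3 lies lower at high volume, and the 3 ng libraries of Cbln1 hold 0.166 RPKM at high volume and 0.051 RPKM at low volume.

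The mean levels ran in the order Cbln2, Nlgn3, Nrxn3, Nlgn2, Nrxn2, Cbln1, Nlgn1 and Cbln4. Of the 7 steps between neighbours, the 6-library ranges were separate only between Cbln2 and Nlgn3 and between Nlgn2 and Nrxn2. The other 5 pairs of neighbours overlapped in range. Within libraries, Nlgn3 was above Nrxn3 in 6 of 6, Nrxn3 above Nlgn2 in 5, Cbln1 above Nlgn1 in 5, Nrxn2 above Cbln1 in 3 and Nlgn1 above Cbln4 in 3. Counted over the distinct exons of all transcripts, Nrxn2 was at 0.756 CPM per kilobase and below Cbln1, at 1.09. Nrxn3 was placed by an alpha transcript whose upstream exons were almost empty. By its beta transcript with the most tags it had 5.92, 6.94 and 8.28 RPKM at high volume, against 6.06, 8.79 and 8.67 RPKM at low volume. That mean of 7.44 put it above Nlgn3, with overlapping ranges.

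Within families, 7 pairs were compared on the scale of log2(RPKM + 1), which understates ratios of low genes, by an exact permutation of signs over the 6 libraries, two-sided, with a smallest possible p of 0.0312 and adjustment over the 7 pairs. In 6 pairs the difference had the same sign in all 6 libraries and passed, each with an exact permutation p of 0.0312 and an adjusted p of 0.0365. Nrxn2 was below Nrxn3 by a log2 difference of -1.14 ± 0.51 (SD, n = 6), which became -1.93 when Nrxn3 was taken by its beta transcript. Nlgn3 exceeded Nlgn1 by 2.47 ± 0.34. Nlgn2 was below Nlgn3, with a log2 difference of -0.92 ± 0.23, and Nlgn1 was below Nlgn2, with -1.55 ± 0.32. The size of these differences depends on coverage, because Nlgn2 tags lay almost only in its last exon. In their last exons alone, Nlgn1 averaged 0.451 RPKM, Nlgn2 5.54 and Nlgn3 7.29, which was not tested. The cerebellins were spread widest: Cbln1 minus Cbln2 was -3.11 ± 0.96, and Cbln2 minus Cbln4 was 3.55 ± 0.57. Cbln1 was above Cbln4 in 5 of 6 libraries, by 0.44 ± 0.45, and this difference did not pass (exact permutation p = 0.0938).

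Exonic reads of Nrxn3 lay almost entirely at and beyond its beta start. The gene spans 1612 kb, and the beta first exon lies 1018 kb downstream of the 1390-base exon that opens its alpha transcript. That alpha exon (chr12:88794504-88795893), which also follows a short exon in 3 models that begin further upstream, had 0, 4 and 12 tags in the high-volume libraries, against 0, 2 and 20 tags in the low-volume libraries. The beta first exon (chr12:89812483-89813640, 1158 bases) had 144, 172 and 245 tags at high volume, against 122, 249 and 283 tags at low volume. In RPKM the alpha exon averaged 0.149 ± 0.177 and the beta exon 7.02 ± 0.860 (SD, n = 6). The log2(RPKM + 1) difference of alpha minus beta was -2.81 ± 0.25, negative in 6 of 6 libraries. Its exact permutation p was 0.0312, the smallest that 6 libraries allow, and 0.0625 after adjustment over the 2 neurexins, which misses the threshold of 0.05.

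The remaining exons followed the same division. The 14 exons of the alpha transcript before the beta start, 3943 bases in all, carried 107 tags in the 6 libraries together and averaged 0.164 ± 0.117 RPKM. Of those 107 tags, 78 lay in 7 exons that overlap shorter non-coding models, so they are not specific to alpha transcripts. The 4 internal exons that alpha and beta share averaged 8.18 ± 3.05 RPKM, and the beta first exon was at a mean of 1.05 ± 0.73 of their density. In the high-volume 3 ng library the beta first exon was above them, at 8.03 against 3.19 RPKM. In every other library it was below them. In the low-volume 3 ng library none of the 14 exons before the beta start had a tag. Those 14 exons lie furthest from the poly(A) tail on which cDNA was primed. The part of that distance in their low density was not tested.

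**Figure D2:**
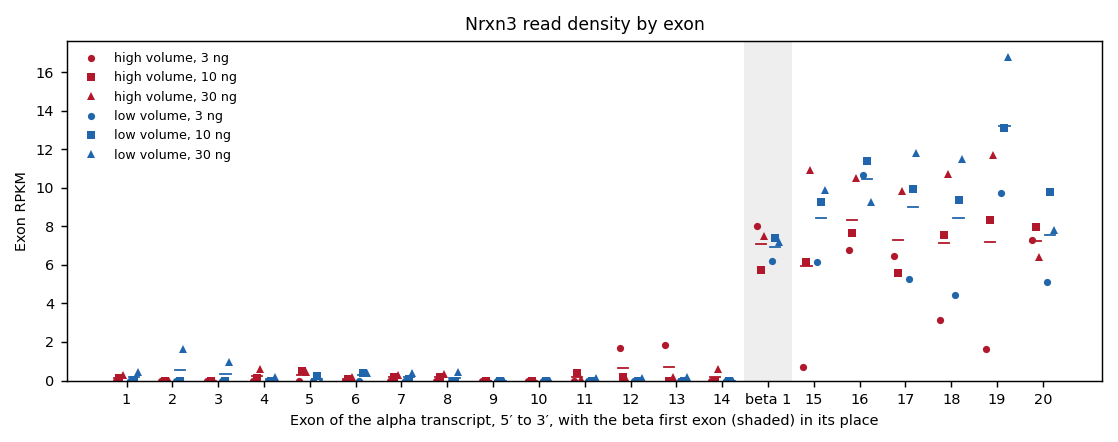
RPKM of each Nrxn3 exon (vertical axis) in transcript order (horizontal axis), with the beta first exon shaded, high-volume libraries in red to the left and low-volume libraries in blue to the right. Symbols give the RNA input and short lines the mean of 3 libraries. The exons before the beta start average 0.164 RPKM over 14 exons, and the beta first exon averages 7.02.

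Intronic reads of Nrxn3 stepped up along the gene too. Introns took 83.5% ± 1.54 of its tags (SD, n = 6), with tags in the beta first exon and in other annotated Nrxn3 exons within those introns counted as exonic. Introns 1 to 13 held 0.0235 ± 0.0039 RPKM, and intron 14, in which the beta exon lies, held 0.0710 ± 0.0181 RPKM before that exon. After the beta exon the same intron held 0.268 ± 0.063 RPKM, and introns 15 to 19 held 0.336 ± 0.049. The 6 libraries of each of the last 2 segments lay above all 6 libraries of the 2 upstream segments. These segments are described without a test. They leave out the beta first exon, but not small exons of other models or unannotated exons.

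**Figure D3:**
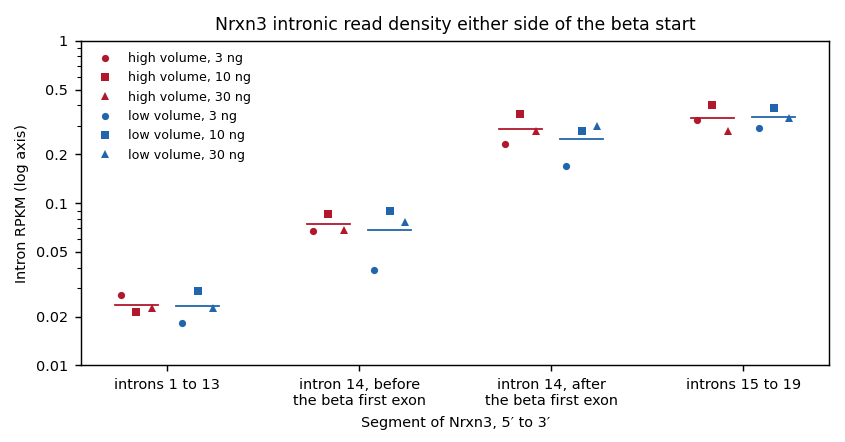
Intronic RPKM of Nrxn3 (vertical log axis) in 4 segments of the gene, 5′ to 3′ (horizontal axis), with high-volume libraries in red to the left, low-volume libraries in blue to the right, and short lines for the mean of 3 libraries. Mean density is 0.0710 RPKM before the beta first exon and 0.268 RPKM after it within intron 14.

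Nrxn2 did not give that contrast, because both of its first exons were nearly empty. The alpha first exon (842 bases, 74.1% G and C) had no tag in any library. The beta first exon (chr19:6497828-6498531, 704 bases, 75.1% G and C) had 0, 0 and 2 tags at high volume, against 16, 0 and 1 tags at low volume. The log2 difference of alpha minus beta was -0.24 ± 0.49 (SD, n = 6; exact permutation p = 0.25). Further downstream, the 16 alpha exons before the beta start carried 201 tags and averaged 0.452 ± 0.292 RPKM, and the 5 internal exons that alpha and beta share averaged 0.989 ± 0.597. Of those 201 tags, 145 lay in 10 exons that overlap shorter non-coding models, so they are not specific to alpha transcripts.

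The splice site 4 exon shown above was covered in Nrxn3 at about the density of its neighbours. Its RPKM relative to the mean of its 2 flanking exons was 1.30, 0.736 and 0.928 in the high-volume libraries, against 0.697, 0.956 and 1.14 in the low-volume libraries. The mean was 0.960 ± 0.232 (SD, n = 6), from 117 tags. Exons of 76 to 90 bases in 1043 well-covered genes had a median ratio of 1.08 to their neighbours, with quartiles of 0.974 and 1.18, and the Nrxn3 mean lay just under the lower quartile. Genes of 3 RNA-binding proteins that regulate this exon in brain were all expressed: Khdrbs1 (Sam68) at 12.8 ± 2.57 RPKM, Khdrbs2 (SLM1) at 11.7 ± 1.68 and Khdrbs3 (SLM2) at 11.3 ± 1.90.

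Of the neuroligin site A exons, the 3′ exon of Nlgn3 was read and its 5′ exon hardly at all. Relative to its flanking exons the 3′ exon had a density of 0, 1.11 and 1.62 at high volume, against 0, 0.919 and 1.33 at low volume, from 73 tags. Both 3 ng libraries had no tag in this exon, with 22 flanking tags at high volume and 60 at low volume. The 5′ exon had 5 tags in all, and a ratio of 0.065 ± 0.063 (SD, n = 6) with no library above 0.153. Exons of 46 to 60 bases in the same 1043 genes had a median ratio of 1.19. The Nlgn1 exon, which resembles the Nlgn3 3′ exon in sequence, had 1 tag against 41 in its flanks, and the Nlgn2 exon had 3 against 5, too few to place either.

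**Figure D4:**
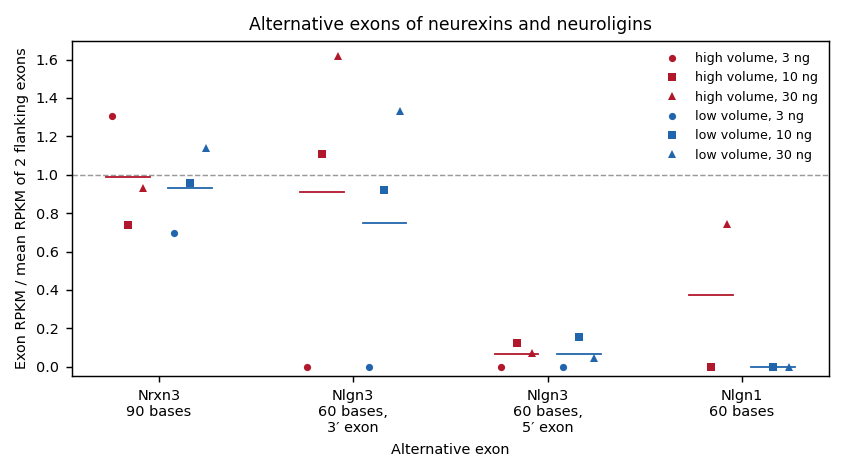
RPKM of 4 alternative exons divided by the mean RPKM of their 2 flanking exons (vertical axis, dashed line at 1), with high-volume libraries in red to the left, low-volume libraries in blue to the right, symbols for the RNA input, and short lines for the mean over libraries with flanking tags. The Nrxn3 exon lies at 0.697 to 1.30 and the Nlgn3 5′ exon at 0 to 0.153.

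The members' reads lay toward their 3′ ends to different degrees. The last exon of Nlgn2, 53.1% of its transcript, held 95.3% ± 1.70 of its tags (SD, n = 6), and the Nlgn2 levels are in effect levels of that exon. The last exon of Nlgn3, 76.6% of the transcript, held 81.8% ± 5.94. Introns held 95.5% ± 3.27 of the Nlgn1 tags, over 698 kb of introns, and 1.30% or less on average in Nlgn2, Nlgn3, Cbln1 and Cbln2.

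The comparison of reaction volumes asks whether the small reaction, with its kit, gives the same profile as the large one. None of the 8 members passed in the edgeR quasi-likelihood test adjusted by the Benjamini-Hochberg method over all 16120 genes, where 1 gene (0.0062%) passed, and 2 of the 8 had an unadjusted p under 0.05, against 6.67% of all genes. Those 2 were Cbln2, with a log2 difference of high minus low volume of 0.81 ± 0.15 (SE; adjusted p = 0.535, n = 3 libraries each), and Nlgn3, with -0.39 ± 0.14 (adjusted p = 0.709). The other members had log2 differences of -0.57 ± 1.03 (Nlgn1) to 1.25 ± 1.27 (Cbln4), each smaller than its SE or near it. Leaving out 1 library at a time moved the estimate of Cbln4 between 0.21 and 2.49 and that of Nrxn2 between 0.14 and 0.80. In the 10 and 30 ng libraries alone Nrxn2 had a log2 difference of 0.87 ± 0.24 (edgeR adjusted p = 0.0972). Over the 8 the median was 0.20, beside 0.02 over all genes. In deposited RPKM, 2 members (Nlgn2 and Nlgn3) did not overlap between the groups, and neither did 19% of all genes.

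The call for Cbln2 depended on the method. DESeq2 gave it an adjusted p of 0.000465, where 173 genes (2.65% of those given an adjusted p) passed, and edgeR on the 10 and 30 ng libraries alone gave a log2 difference of 0.89 ± 0.13 with an adjusted p of 0.0114, where 1.65% passed. The difference was uneven along the transcript. Exon 3 (521 bases, 66% G and C) had 140, 93 and 123 tags at high volume, against 41, 26 and 23 tags at low volume. In RPKM that was 10.9 ± 5.66 at high volume and 2.56 ± 1.83 at low volume (SD, n = 3 each). Exon 4 (120 bases, 41.7% G and C) had 33, 62 and 55 tags at high volume, against 16, 27 and 29 tags at low volume. In RPKM neither exon overlapped between the groups. At the level of genes 19% of all tested genes did not overlap either, and the share over all exons was not counted. In the last exon (43% G and C) the groups overlapped, with 27.3, 23.7 and 17.7 RPKM at high volume, against 22.7, 14.5 and 12.4 RPKM at low volume. The last exon held 81.6% ± 3.14 of the Cbln2 tags at high volume and 92.0% ± 0.86 at low volume. These exons were picked out after their values were seen and were not tested.

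**Figure D5:**
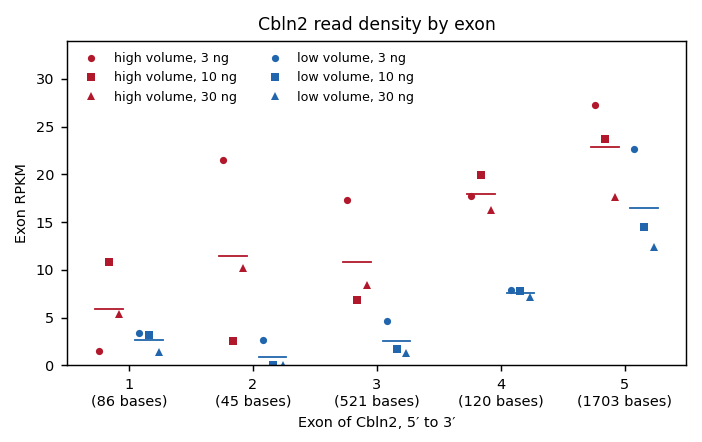
RPKM of each exon of Cbln2 (vertical axis) in transcript order with exon lengths (horizontal axis), with high-volume libraries in red to the left, low-volume libraries in blue to the right, symbols for the RNA input, and short lines for the mean of 3 libraries. Exon 3 averages 10.9 RPKM at high volume and 2.56 RPKM at low volume.

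Among the spinal cord markers Hes5 had a difference of the same sign as Cbln2, with a log2 difference of 1.85 ± 0.33 (edgeR adjusted p = 0.535). It held most of the summed RPKM of the 8 spinal cord markers, which was 8.40 to 13.97 in the high-volume libraries, against 3.17 to 4.82 in the low-volume libraries. The other 7 together had 2.30, 1.20 and 0.981 RPKM at high volume, against 0.633, 2.11 and 1.32 RPKM at low volume, and these groups overlapped. Of those 7, Mnx1 and Olig2 were at 0 to 1 tag in each of the 6 libraries, and Nkx6-1 had 12 to 44 tags. All 6 libraries were made from 1 stock of RNA, so both groups shared the same make-up of tissue. The part of base composition in the Cbln2 difference was not tested.

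The amount of input RNA gave no call either. In the edgeR fit none of the 8 members passed for the slope on log2 input, nor did any of the 16120 genes (0%; 1252 genes, or 7.77%, at an unadjusted p under 0.05; DESeq2 called 62). The estimated slope of Cbln2 was -0.23 ± 0.06 in log2 per doubling of input (SE; edgeR adjusted p = 0.625), and its RPKM was lower at each larger input in both groups. DESeq2 gave that slope an adjusted p of 0.0386, where 0.379% of genes passed. Cbln1 had a slope of 1.09 ± 0.40 (edgeR adjusted p = 0.625), which was 0.10 ± 0.19 without the 3 ng libraries. Nlgn1 had a slope of 0.99 ± 0.43 (edgeR adjusted p = 0.625), and 0.53 ± 0.24 without them. The slopes of Cbln1 and Nlgn1 over all 6 libraries include 3 ng libraries with 0 to 13 tags. No member passed for an interaction of volume and input, and neither did any of the 16120 genes in edgeR, of which 1347 had an unadjusted p under 0.05.

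Of the 8 members, 3 were far less steady between libraries than most genes, and these were the 3 with the lowest levels. The SD of log2 CPM was 2.06 for Nlgn1, 1.85 for Cbln1 and 1.73 for Cbln4, against a median of 0.42 over the 16120 genes. For Nlgn2 it was 0.08, lower than in all but 0.819% of genes. The 3 genes whose centred log2 CPM over the 6 libraries was closest to that of Nlgn1 were Mr1, Gm11232 and Gja5, with root mean square differences of 0.262, 0.262 and 0.272. Each of the 3 was lowest in the high-volume 3 ng library, at -3.53 log2 CPM, where Nlgn1 had no tag. That is the value given to a count of 0 and not a measured level. Both the likeness and the SD of Nlgn1 include it.

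The partners of the system were measured in the same libraries. Of the 41 listed genes, those that passed the filter on low counts were tested, and none passed in either comparison. Over all 16120 genes, 1 (0.0062%) passed for volume and 0 (0%) for input. The delta-type glutamate receptor gene Grid1 averaged 0.149 ± 0.091 RPKM (SD, n = 6). Of 20 other neurexin ligands or their relatives, 16 passed the filter on low counts and 11 had a mean of 1 RPKM or more. The 3 highest were the calsyntenins Clstn1 (20.8 ± 4.89) and Clstn3 (11.3 ± 2.16) and the latrophilin Adgrl1 (9.06 ± 0.626). The neuroligin blockers Mdga1 and Mdga2, which cover the neurexin-binding face of neuroligins, averaged 2.73 ± 0.512 and 0.442 ± 0.150 RPKM. Among 14 scaffold genes, all of which passed the filter, 12 had at least 1 RPKM. The highest were Lin7c (26.5 ± 5.98) and Apba2 (13.5 ± 2.99), which belong to the complex that binds the neurexin tail, and Gphn (10.1 ± 2.78), which encodes gephyrin, a scaffold of inhibitory synapses that binds NLGN2.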

How the data were processed

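Libraries were grouped by the reaction volume in the labels. The submitters' processing notes name the build GRCm38.p1 and the tools Bowtie2 2.1.0, TopHat2 2.0.8 and CASAVA 1.8, and how tags were counted is not given in the sources used here. Deposited values are whole-number counts (tag counts) per transcript, exon and intron, without regard to strand, and the authors' RPKM, which divides a count by feature length and library total. PCR copies were not removed by molecular identifiers, and limits of 3 tags cover counting error only. Each gene was represented by its transcript with the most tags. Counts were tested with edgeR 4.0.16 (TMM, filterByExpr, volume plus centred log2 input, 3 residual degrees of freedom) and adjusted by Benjamini-Hochberg at 0.05, and the procedure was tested on simulated data. DESeq2 1.42.0, other scalings, filters and left-out libraries were alternatives. Pairs and first exons were compared by exact permutation on log2(RPKM + 1), and flanking exons were those shared by spanning coding transcripts. Named genes were all members and, in each partner list, the 3 highest by mean RPKM and any that passed. The members and lists were chosen with earlier results of these data known. Some items are not reported here.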

Additional observations from a re-analysis of the deposited data

How the results depend on the processing

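The 6 within-family differences that passed kept their direction under each alternative tried. For volume, where edgeR called 1 gene, DESeq2 called 173, edgeR without the low-count filter 11, and the 10 and 30 ng libraries alone 274; leaving out 1 library gave 0 to 2, and treating input as a replicate block, which pairs libraries of equal input, gave 0. For input, where edgeR called 0, DESeq2 called 62, no filter 2, and the 10 and 30 ng libraries 1. Among members the count for volume became 1 with DESeq2 and 1 in the 10 and 30 ng libraries (Cbln2 both times), and for input 1 with DESeq2 (Cbln2). The Nrxn2 alpha minus beta difference turned to 0.26 with the mean of all upstream exons, and was -1.23 in the 1 library with 10 or more tags. Signs of estimates that had not passed also turned. The volume estimate of Nrxn3 became -0.078 with total-count scaling and -0.14 at 10 and 30 ng, and at 10 and 30 ng the input slope became -0.062 for Nrxn3 and -0.28 for Cbln4. Without 1 library at a time, volume estimates ran from -0.21 to 0.23 for Nrxn3, -1.89 to 0.10 for Nlgn1, -0.12 to 0.00095 for Nlgn2 and -0.17 to 1.56 for Cbln1, and input slopes from -0.013 to 0.052 for Nlgn2 and -0.0073 to 1.13 for Cbln4. The cause was not tested. Depth limits Nlgn1, Cbln1, Cbln4 and the first exons of Nrxn2.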
